A study of Rattus norvegicus with 15 samples.

Results

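The genes examined here make charged tRNA. They are the 46 genes, of 21969 in the deposited table, that its KEGG column assigns to aminoacyl-tRNA biosynthesis and that had at least 50 counts summed over the 15 libraries. No expression difference was used to choose them. They comprise 19 cytosolic synthetases, 2 genes whose protein serves both cytosol and mitochondria (Gars and Kars), 18 mitochondrial synthetases and 7 loci of other enzymes of the pathway. The 46 loci carry 45 symbols, because Gatc is annotated at 2 loci, the shorter lying within the longer. All 46 passed the filter on low counts.

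The cells were rat airway epithelial cells, released from trachea with pancreatin and grown on inserts at an air-liquid interface for weeks, a culture in which airway epithelium differentiates. Poly(A) RNA was sequenced from 5 untreated control libraries, 5 libraries of cells given 10% CSE for 24 h, and 5 libraries of cells given 100 µM naringenin from 4 h before the same CSE. Naringenin is a citrus flavanone, and CSE is an abbreviation the labels do not expand. No strain, animal or culture is named for any library, so p-values measure the spread between these libraries, which may be technical, and there was no group with naringenin alone.

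An aminoacyl-tRNA synthetase joins an amino acid to its tRNA using ATP, and so sets which amino acid each codon receives. Vertebrate cells keep one set of synthetases for cytosolic protein synthesis and another, encoded in the nucleus, for the few proteins made inside mitochondria. Several cytosolic synthetases sit together in the multisynthetase complex on scaffold proteins, and many are transcribed under Atf4, the transcription factor of the integrated stress and amino acid responses.

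Atf4 binds, with C/EBP proteins, a composite element of the form TGATGNAA, so the promoters were read for these letters. RefSeq promoters (GRCr8 build, 250 bases before to 50 after the gene start) were at hand for 38 of the 45 symbols. On either strand, the element was present in 7 of the 38 (18.4%) and in 3.98% of all 33469 promoters of that length. The 7 are cytosolic synthetase genes, namely Aars, Cars, Iars1, Mars1, Nars1, Tars1 and Yars1, and Aars holds it at 2 places. Windows around the 5 copies lying before the gene start are shown 5′ to 3′ on the strand of the gene, with the element in capitals (it reads TTGCATCA where it lies on the opposite strand), since these are the letters the later counts refer to.
Aars, chr19:55908340-55908407, plus strand: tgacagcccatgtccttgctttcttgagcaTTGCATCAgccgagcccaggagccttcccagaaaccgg
Iars1, chr17:15193639-15193706, minus strand: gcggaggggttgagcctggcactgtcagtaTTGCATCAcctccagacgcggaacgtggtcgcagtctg
Mars1, chr7:65023733-65023800, minus strand: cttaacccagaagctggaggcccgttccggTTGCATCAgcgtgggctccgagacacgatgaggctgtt
Nars1, chr18:60275759-60275826, minus strand: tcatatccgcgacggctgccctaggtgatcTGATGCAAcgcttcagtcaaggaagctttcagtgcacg
Tars1, chr2:62114792-62114859, minus strand: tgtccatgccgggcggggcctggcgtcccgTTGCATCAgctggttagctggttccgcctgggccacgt
Counted from the gene start, with bases before it negative, the first capital lies at -112 in Aars and between -27 and -14 in the others. A second search, for the antioxidant response letters TGACNNNGC bound by the stress factor Nrf2, also found 7 of the 38 promoters (18.4%), against 12.1% of all promoters. Aars, Iars1 and Nars1 hold both elements, and in none of these 3 do the matches overlap. A match of letters is a description and shows no binding.

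The libraries held 55085063 to 60553124 counts, and the 46 genes took 0.323 to 0.356% of them in control libraries, 0.395 to 0.507% with CSE and 0.366 to 0.483% with CSE and naringenin. The groups of control and treated libraries did not overlap in this share. Apart from treatment, the libraries fell into 3 sets by the profile of all genes after the group means were removed. Set 1 held controls 1 and 2, CSE 1 and 3, and CSE with naringenin 3 and 4. Set 2 held controls 3 and 4, CSE 2 and 4, and CSE with naringenin 1 and 2, and replicate 5 of each group formed set 3. The sets were found in these same counts, and the labels do not name them. Epithelial marker counts (Epcam, Cdh1, Krt8 and Krt18, summed) were 3200 to 4138 CPM (counts per 1e6 of the TMM-scaled library total) in control libraries, 2208 to 2787 with CSE and 2088 to 2852 with CSE and naringenin. The 6 stromal markers matched summed to 153 to 580, 16.8 to 128 and 32.6 to 220 CPM in the same order. With CSE, 3 of 4 epithelial, 2 of 4 tested stromal, 2 of 4 ciliated, 1 of 4 basal and 0 of 4 secretory markers fell and none rose, beside 10.4% of all genes lower. The part of cell makeup in the results below was not tested. In RNA from whole cultures, fewer cells of a type cannot be told apart from less RNA per cell.

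Per unit of gene length, the cytosolic synthetases were the more abundant class. In control libraries the mean FPKM (fragments per kilobase of gene and 1e6 fragments) of the 19 cytosolic genes ran from 1.88 for Tars3 to 97.8 for Nars1, with a median of 34.0. The 18 mitochondrial genes ran from 1.51 to 16.0 FPKM, with a median of 5.24. Kars stood at 79.4 FPKM and Gars at 43.7, and the 7 other loci had a median of 6.88. Tars3, a second threonyl-tRNA synthetase gene beside Tars1, was the cytosolic exception and lay within the mitochondrial range. Mars2 and LOC100911305, both annotated as mitochondrial methionyl-tRNA synthetase, differed by at most 1.08 times in counts in every library, so their reads may be shared and their separate values are uncertain.

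**Figure D1:**
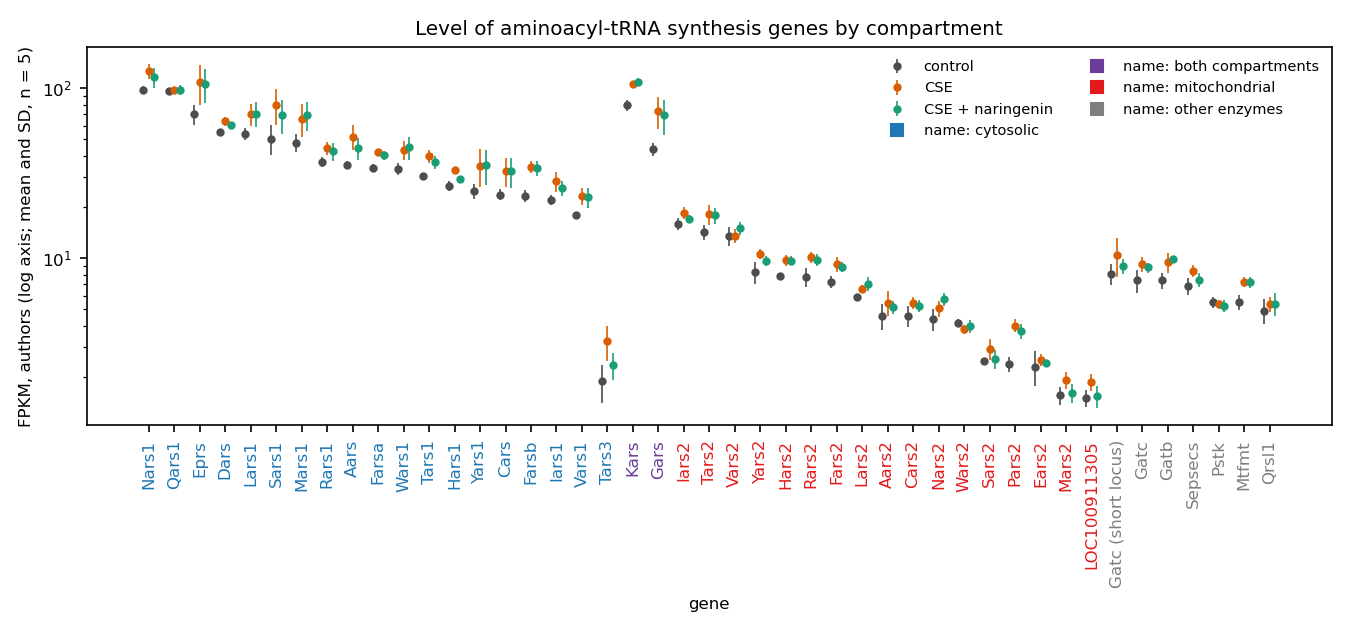
Mean level of 45 of the 46 loci in FPKM (log axis) with the SD over 5 libraries, for control, CSE and CSE with naringenin, with names coloured by compartment. Cytosolic genes lie mostly above mitochondrial ones, and Tars3 at 1.88 FPKM in controls is the low cytosolic exception.

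CSE against control asks what the extract did to the epithelium. In this comparison 23 of the 46 genes rose and 0 fell, at an adjusted p under 0.05 in edgeR's quasi-likelihood test over all 15860 genes tested. Of all genes tested 21.2% were called, 10.8% higher and 10.4% lower. On the log2 scale the 46 genes had a median change of 0.29, beside -0.00255 for all genes tested, and 42 of the 46 were positive. The largest change, that of Tars3, was 1.66-fold. In 14 genes all 5 CSE libraries lay above all 5 controls and in 1 they lay below, beside 14.6% of all genes with groups that did not overlap (8.32% higher). Without the 3 libraries of set 3, 12 of the 46 passed, all among the 23. That fit called 3062 of all genes in either direction, where the full fit called 3363.

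Of the 19 cytosolic synthetases, 12 rose, with a median log2 fold change of 0.32 for the class. The count of 12 was 7 without control 4 or without CSE 1, and 6 without set 3. Over all genes those fits called 2625, 2836 and 3062 in either direction, beside 3363 in the full fit. Farsb, the beta subunit of phenylalanyl-tRNA synthetase (chromosome 9, 84324442 to 84383687 in the coordinates of the deposited table, for which no source used here names a build), had one of the clearest differences. Its control libraries 1 to 5 gave 62.6, 65.6, 56.5, 55.8 and 56.0 CPM. The CSE libraries gave 90.0, 78.2, 91.0, 81.9 and 82.6 CPM, so the groups did not overlap, and the log2 fold change was 0.51 ± 0.08 (SE, n = 5 per group, adjusted p = 3.37e-04, edgeR). With naringenin added the values were 79.9, 71.7, 88.6, 92.0 and 81.3 CPM. These overlap the CSE libraries and all exceed the controls. The alpha subunit gene Farsa also rose, by 0.25 on the log2 scale.

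Aars, alanyl-tRNA synthetase, had control values of 144, 142, 156, 142 and 139 CPM. With CSE it gave 226, 176, 246, 174 and 202 CPM, every one above the highest control, for a log2 fold change of 0.50 ± 0.11 (SE, adjusted p = 0.00419, edgeR). With naringenin it gave 161, 150, 194, 205 and 164 CPM. The naringenin libraries thus span the upper edge of the controls and the lower CSE values. The CSE effect on Aars was 0.72 within set 1 and 0.23 within set 2 on the log2 scale.

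Tars3 had the largest fold change and the lowest level of the cytosolic genes. Its control libraries gave 3.09, 3.93, 4.80, 5.47 and 3.36 CPM, and the CSE libraries 5.08, 7.14, 6.28, 9.46 and 6.39 CPM. The ranges overlap by 1 CSE library, CSE 1, which lies below control 4, and the log2 fold change was 0.73 ± 0.20 (SE, adjusted p = 0.0156, edgeR). With naringenin the values were 5.79, 6.09, 4.71, 4.10 and 4.13 CPM, within or close to the control range. Without set 3 the adjusted p was 0.0532 at a log2 fold change of 0.69. Unlike most cytosolic genes, Tars3 was higher in set 2 than in set 1 in each group.

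Wars1, tryptophanyl-tRNA synthetase, is also known as an interferon-induced gene. It gave 156, 150, 135, 136 and 132 CPM in controls and 188, 158, 204, 154 and 181 CPM with CSE. CSE 4 lay just below control 1, and the log2 fold change was 0.32 ± 0.10 (SE, adjusted p = 0.0422, edgeR). With naringenin it gave 167, 150, 207, 214 and 175 CPM. Of 8 other interferon-induced genes examined beside it, none rose with CSE and 3 fell, Gbp2 and Ifit2 among them, beside 10.4% of all genes lower. Control 5 stood far above the other controls in Mx1, Ifit3 and Cxcl10, at 36.3, 17.7 and 14.9 CPM. Their log2 fold changes had an SE of 0.99, 1.05 and 0.97, so they could hardly be called either way. A part of interferon in the change of Wars1 was not tested.

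The other cytosolic genes that rose were Sars1 (log2 fold change 0.61), Eprs (0.57), Tars1 (0.33), Vars1 (0.32), Nars1 (0.30), Iars1 (0.30) and Hars1 (0.26), which charge tRNA with serine, glutamate and proline, threonine, valine, asparagine, isoleucine and histidine. The remaining cytosolic genes did not pass, among them Yars1 (0.43, adjusted p = 0.0823, edgeR), Mars1 (0.41, adjusted p = 0.0751, edgeR) and Cars (0.40, adjusted p = 0.0526, edgeR), whose fold changes exceeded those of several that passed. Qars1, glutaminyl-tRNA synthetase, was the one cytosolic gene with a negative value, -0.03 ± 0.06 (SE), at 290 to 314 CPM in controls and 289 to 326 CPM with CSE. Its 95% interval for CSE against control ran from -0.15 to 0.10.

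**Figure D2:**
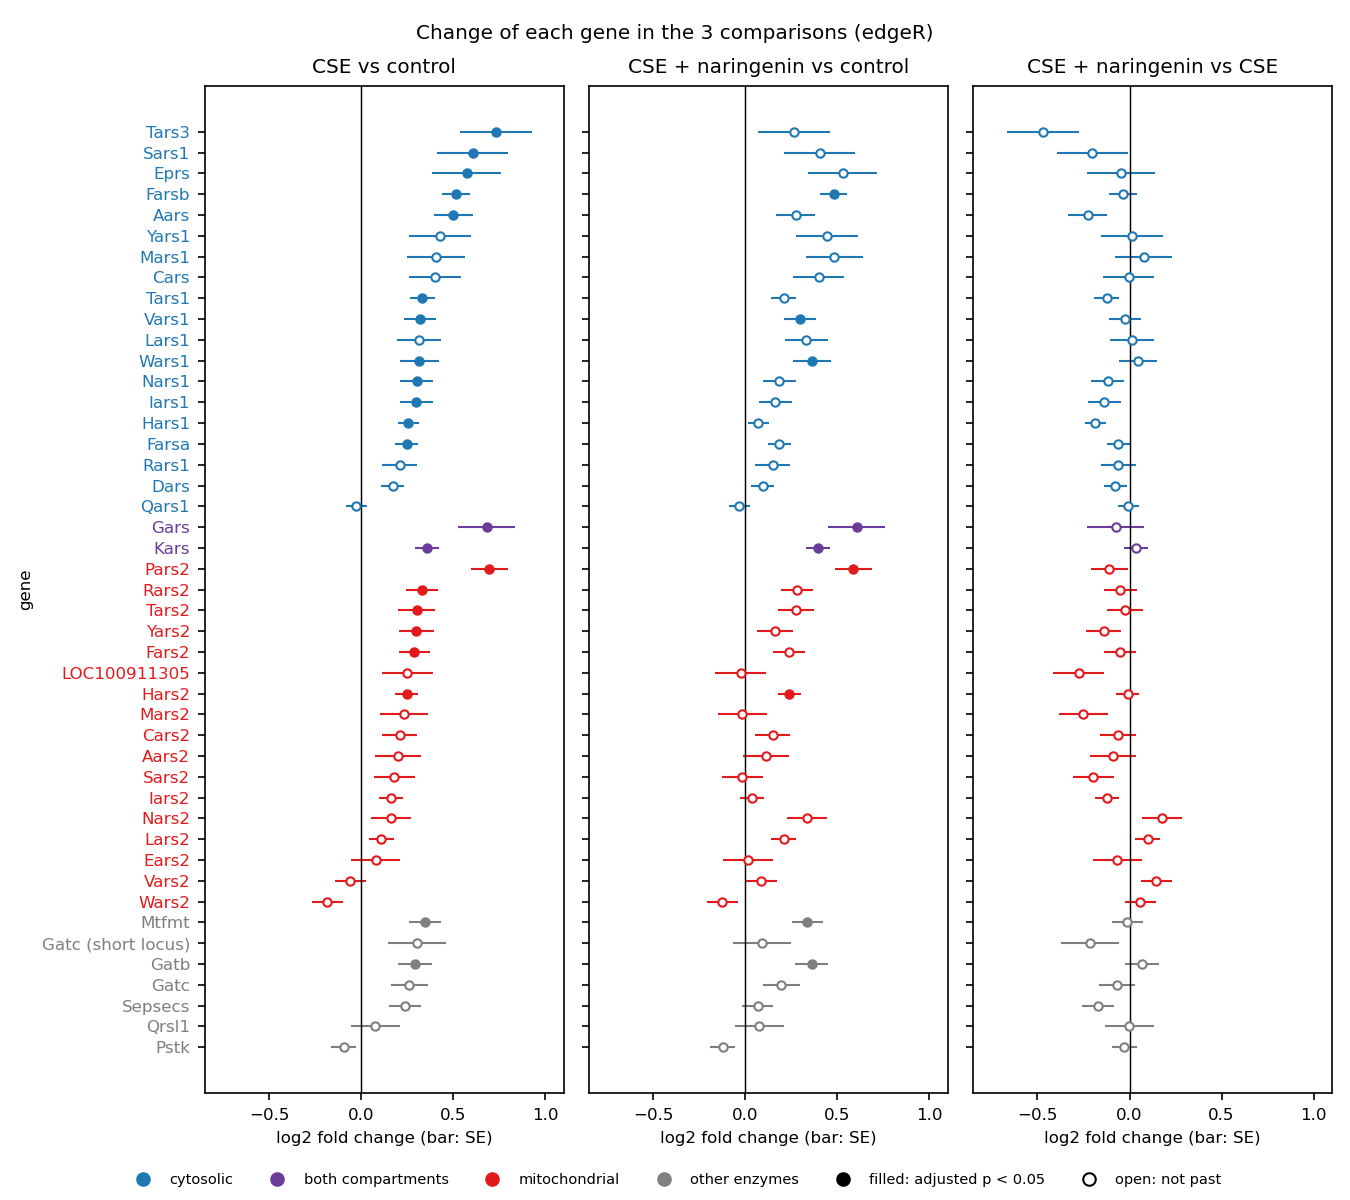
Log2 fold change of 45 of the 46 loci with its SE in the 3 comparisons, ordered within compartment by the CSE change, with filled points for an adjusted p under 0.05 in edgeR. Most points of the left panel lie above 0, fewer are filled in the middle panel (9), and none is filled in the right panel.

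Both genes that serve cytosol and mitochondria rose. Gars, glycyl-tRNA synthetase, gave 130, 125, 111, 103 and 125 CPM in controls. With CSE it gave 212, 151, 243, 160 and 188 CPM, with no overlap and a log2 fold change of 0.68 ± 0.16 (SE, adjusted p = 0.00646, edgeR). With naringenin it gave 164, 129, 213, 231 and 168 CPM, and 1 of these 5 libraries fell within the control range. Kars, lysyl-tRNA synthetase, gave 195, 187, 179, 188 and 227 CPM in controls and 242, 246, 257, 251 and 258 CPM with CSE. Again no CSE library overlapped the controls, and the log2 fold change was 0.36 ± 0.07 (SE, adjusted p = 0.00155, edgeR). With naringenin Kars gave 265, 237, 249, 264 and 272 CPM, also above every control.

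Of the 18 mitochondrial synthetases, 7 rose, with a class median of 0.22 on the log2 scale. The count was 3 without set 3, and 3 when control and CSE libraries were fitted alone. Those fits called 3062 and 2756 of all genes in either direction, beside 3363 in the full fit. Pars2, mitochondrial prolyl-tRNA synthetase (chromosome 5, 126254142 to 126259200 in the same coordinates), changed most. Controls gave 9.76, 8.29, 9.96, 7.75 and 9.21 CPM, and CSE libraries 15.3, 13.9, 13.0, 14.1 and 16.6 CPM. The groups lay well apart, with a log2 fold change of 0.70 ± 0.10 (SE, adjusted p = 3.14e-04, edgeR), and the effect was 0.65, 0.67 and 0.85 within sets 1, 2 and 3. Libraries with naringenin gave 12.8, 14.6, 13.0, 11.8 and 15.3 CPM, all above the controls.

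Other mitochondrial genes that rose were Rars2 (0.33), Tars2 (0.30), Yars2 (0.30), Fars2 (0.29) and Hars2 (0.25), for arginine, threonine, tyrosine, phenylalanine and histidine. Rars2 overlaps Slc35a1 on the opposite strand, and no source used here says whether the counting used strand. Wars2, the mitochondrial partner of Wars1, went the other way without passing the test, and was chosen here after its values were seen. It gave 9.86, 9.53, 9.45, 9.65 and 8.91 CPM in controls and 8.09, 7.51, 8.63, 8.60 and 8.89 CPM with CSE. Every CSE library lay below every control, the closest pair by a small margin, and the log2 fold change was -0.18 ± 0.08 (SE, adjusted p = 0.138, edgeR). The remaining enzymes gave 2 of 7 higher. These were Mtfmt (0.35), which formylates the mitochondrial initiator methionyl-tRNA, and Gatb (0.29), a subunit of the amidotransferase that completes mitochondrial glutaminyl-tRNA. Pstk, which acts in selenocysteine tRNA synthesis, had a log2 fold change of -0.10 that did not pass.

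Further groupings, by catalytic class and by complex, were made after the values had been seen, and they are given as counts without a test. Of the synthetases with the class II catalytic fold 15 of 19 rose, and of those with the class I fold 5 of 19, leaving aside the bifunctional Eprs. Of the 8 synthetases of the multisynthetase complex 3 rose (Eprs, Iars1 and Kars), and of the 12 cytosolic synthetases outside it (Gars, which serves both compartments, not counted) 10 rose. The class medians lay closer together than these counts, at 0.30 for class II and 0.25 for class I, and at 0.31 inside and 0.37 outside the complex.

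The promoter element was set beside the calls of the cytosolic genes as counts, and any effect of it was not tested. Of the 7 cytosolic genes with TGATGNAA 4 rose (Aars, Iars1, Nars1 and Tars1), and of the 10 whose promoters lacked it 8 rose. Dars and Rars1, whose promoters were not at hand, did not pass. The median log2 fold change was 0.40 with the element (0.30 to 0.50) and 0.32 without (-0.03 to 0.73). Mars1, Cars and Yars1 carry the element and did not pass the test, at log2 fold changes of 0.41, 0.40 and 0.43.

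Several cytosolic genes differed between library sets as much as between treatments. Eprs, chosen here after its values were seen, gave 683 and 731 CPM in the CSE libraries of set 1, 424 and 412 CPM in those of set 2, and 652 CPM in that of set 3. Its controls gave 440 and 407, 322 and 338, and 443 CPM in the same order, so CSE libraries of set 2 did not exceed the highest control, while within each set CSE lay above control. Mars1, also chosen after its values were seen, gave 230 and 254 CPM with CSE in set 1 and 163 and 158 CPM in set 2, beside 167 and 164 and then 129 and 131 CPM in the matching controls. Among CSE libraries, 14 of the 19 cytosolic genes were higher in both set 1 libraries than in both set 2 libraries and 5 were lower, while 5 of the 18 mitochondrial genes were higher and 4 lower. Some separation is built in, because the sets were drawn from the profiles of these same libraries. The share of all genes separated in this way was not computed, so these counts do not mark the pattern as particular to the pathway. The median CSE effect of the 46 genes was 0.31, 0.22 and 0.35 on the log2 scale in sets 1, 2 and 3, and 38 of the 46 were positive in all 3 sets. With the set as a block 33 of the 46 genes passed, the 23 included. In that fit 6325 of all 15860 genes were called in either direction, beside 3363 without the block. With that block on counts summed per library set and group 26 passed, 20 of the 23 included, beside 4044 of all genes. Because the sets come from these counts, those p-values are not independent of the data that defined the sets.

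**Figure D3:**
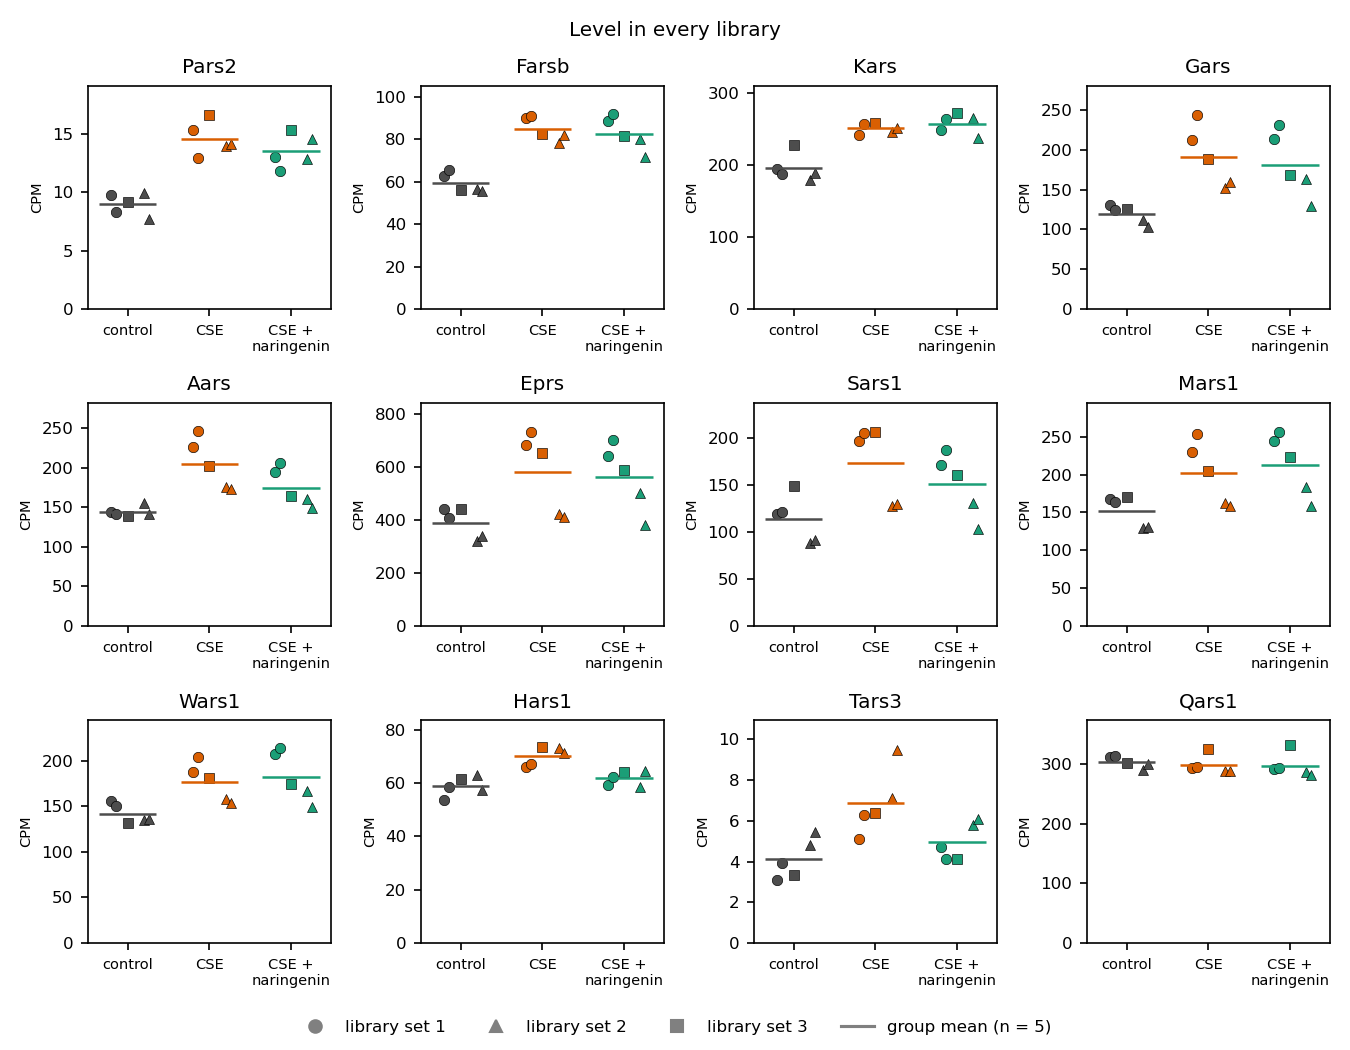
CPM of 12 genes in each of the 15 libraries (axes from 0), with point shape for the library set and a line for the group mean. Pars2, Farsb and Kars separate control from CSE in every set, whereas for Eprs, Sars1 and Mars1 the set 2 libraries (triangles) lie low in all 3 groups, and Qars1 runs from 281 to 332 CPM in all groups.

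Of the 23 calls 9 were lost in some of the 10 fits with 1 library left out. Those fits hold fewer libraries and called 2585 to 3501 of all genes, beside 3363 in the full fit. Wars1 lost its call without any one of controls 2 to 5 or CSE 1, 3 or 5, Sars1 without controls 1 to 4 or CSE 1, 3 or 5, and Eprs without controls 2, 3 or 4 or CSE 1, 3 or 5. Their adjusted p (edgeR) then rose to at most 0.105, 0.0900 and 0.105. Yars2 lost it without controls 3 to 5 or CSE 1, 3, 4 or 5 (at most 0.0949), and Tars2 without controls 1, 2, 4 or 5 or CSE 2, 3 or 4 (at most 0.111). Gatb lost it without controls 1, 3 or 5 or CSE 1 or 3 (at most 0.0843), Iars1 without controls 2 or 4 or CSE 1 or 3 (at most 0.0683), Nars1 without control 4 or CSE 1, 3 or 5 (at most 0.0651) and Fars2 without controls 1 or 2 or CSE 2 (at most 0.0728). The other 14 calls held in all 10 of these fits.

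For 16 amino acids the cytosolic and the mitochondrial gene can be set against each other within each library, which removes the scaling of the library. Eprs stands in both the glutamate and the proline pair, so the pairs are not all independent. Phenylalanine was taken with Farsa (log2 fold change 0.25 with CSE), not Farsb (0.51), over Fars2 (0.29), and threonine with Tars1, not Tars3. The counts of pairs depend on these choices. The log2 ratio of cytosolic to mitochondrial counts moved up with CSE for 12 pairs and down for 4, and no pair passed after Benjamini-Hochberg adjustment over the 16 (two-sided exact permutation test, lowest adjusted p = 0.0635). This test was added after the single genes' results were known. The tryptophan pair (Wars1 over Wars2) moved most, from a mean log2 ratio of 3.90 ± 0.08 in controls to 4.40 ± 0.16 with CSE (SD, n = 5 each, exact permutation p = 0.00794, the smallest that 5 against 5 allows). The valine pair (Vars1 over Vars2) moved from 0.39 ± 0.17 to 0.76 ± 0.10 (SD, n = 5 each, exact permutation p = 0.00794). In these pairs the ratios of the 2 groups did not overlap, which was so for none of the other pairs. Over 16 pairs, 2 at this smallest p reach an adjusted p of 0.0635 at best (exact permutation test). With every other pair at a larger p, these 2 could therefore not pass. The proline pair (Eprs over Pars2) moved most in the other direction, by -0.15, with an exact permutation p of 0.484. Adding naringenin to CSE gave a lowest adjusted p of 0.381 over the 16 pairs (exact permutation test).

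**Figure D4:**
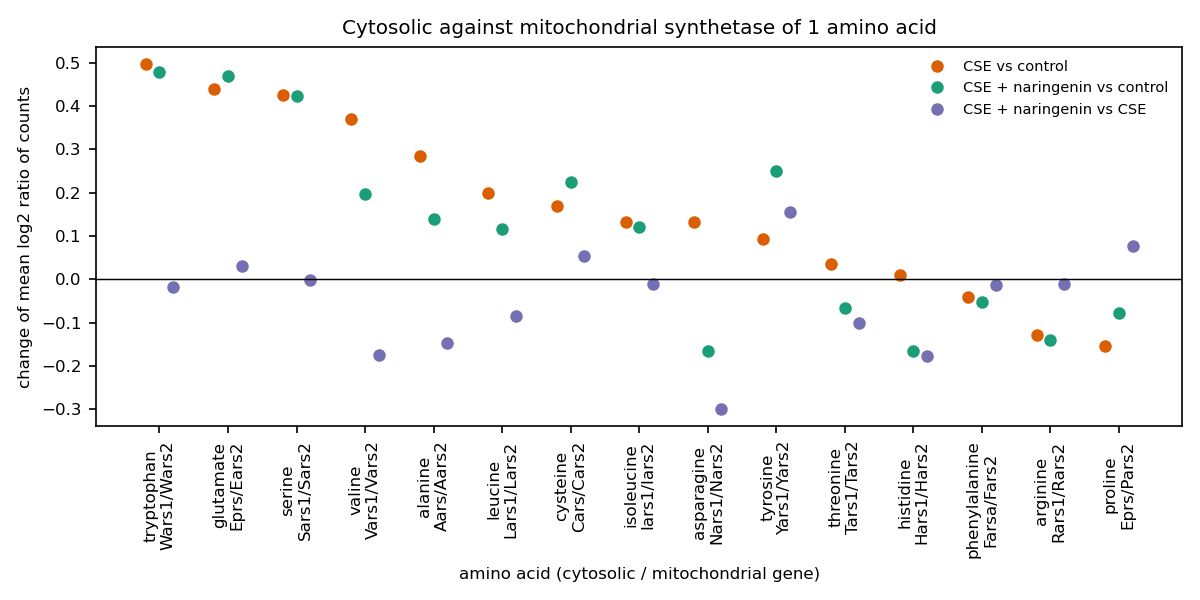
Change of the mean log2 ratio of cytosolic to mitochondrial counts for 15 of the 16 pairs in the 3 comparisons, ordered by the CSE change. Tryptophan leads with 0.50 in CSE against control and proline is lowest at -0.15. No pair passed the adjusted exact permutation test. The 2 pairs with groups that did not overlap could not pass it with every other pair at a larger p.

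CSE with naringenin against CSE asks what the flavanone changed in cells that all received the extract. None of the 46 genes passed in this comparison with edgeR (0.908% of all genes were called), and none with DESeq2 or limma-voom, while 3 had an unadjusted p under 0.05. Of the 46 log2 fold changes 35 were negative, with a median of -0.06 beside 0.00462 for all genes tested. The 3 genes were Tars3 at -0.47 ± 0.19, Aars at -0.23 ± 0.11 and Hars1 at -0.19 ± 0.06 (SE), with adjusted p of 0.303, 0.372 and 0.140 in edgeR. Hars1, histidyl-tRNA synthetase, was chosen here after its values were seen. It gave 66.2, 73.0, 67.1, 71.3 and 73.7 CPM with CSE, and 58.6, 64.4, 59.3, 62.1 and 64.2 CPM with naringenin added. All 5 naringenin libraries lay below all 5 CSE libraries, within or just above the range of the controls (53.5 to 63.0 CPM). It was the only such gene of the 46, beside 4.77% of all genes with groups that did not overlap, and none had naringenin libraries wholly above the CSE libraries (1.97% of all genes). With the library set as a block Hars1 and Tars3 passed, with adjusted p of 0.0146 and 0.0158 (edgeR). In that fit 2015 of all 15860 genes were called, beside 144 without the block. Hars1 and Tars3 did not pass without set 3 (0.175 and 0.432, edgeR). Nor did they pass with the same block on counts summed per library set and group (0.131 and 0.0901, edgeR), where 0 of the 46 passed. Across the 46 genes the 95% intervals reached from -0.88 for Tars3 to 0.41 for Mars1 on the log2 scale, so the data do not show that naringenin left these genes unchanged.

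CSE with naringenin against control shares its controls with the first comparison, so the values are set side by side. In it 10 of the 46 genes rose and none fell (8.16% of all genes were called, 4.26% higher). They included Gars (0.61), Pars2 (0.59), Farsb (0.48), Kars (0.40), Wars1 (0.36), Gatb (0.36), Mtfmt (0.34), Vars1 (0.30) and Hars2 (0.24). The 23 genes that rose with CSE had a median log2 fold change of 0.32 with CSE and 0.27 with CSE and naringenin, each against the same controls, and all 23 were positive with naringenin. These 23 were picked by their CSE values, which by itself favours a lower median in the other group. Eprs (0.53) was the largest value that did not pass. In 9 genes all naringenin libraries lay above all controls, beside 8.27% of all genes with groups that did not overlap (4.65% higher). The count of 10 changed when single libraries were left out. It was 4 without control 3, 5 without control 4 or naringenin library 1, 3 without naringenin library 3, 6 without naringenin library 4 or 5, and 17 without naringenin library 2. In the order named, those fits called 1103, 872, 791, 755, 859, 932 and 1273 of all genes, beside 1294 in the full fit. Without set 3 the count of members higher was 5, beside 1395 of all genes called in either direction, where the full fit called 1294. With the set as a block it was 26, beside 4192 of all genes. With that block on counts summed per library set and group it was 11, of which 6 were among the 10, beside 1701 of all genes.

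Of these 10 calls 7 were lost without single libraries, by the same edgeR test, and 6 of them are given here. Vars1 lost its call without any one control or naringenin library 1, 3 or 4 (adjusted p at most 0.114), and Wars1 without controls 2 to 5 or naringenin library 1, 3, 4 or 5 (at most 0.109). Hars2 lost it without controls 1 to 4 or naringenin library 1, 3 or 5 (at most 0.0847). Gars lost it without controls 3 or 4 or naringenin library 3 or 4 (at most 0.0709), Mtfmt without controls 3 or 4 or naringenin library 3 or 5 (at most 0.0692), and Gatb without control 3 or naringenin library 1 or 3 (at most 0.0540). Farsb, Kars and Pars2 kept theirs in all 10 fits.

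Genes next to the pathway were read from 4 lists. Among the 3 scaffold genes of the multisynthetase complex, Eef1e1 (0.39 ± 0.06, SE) and Aimp1 (0.31 ± 0.09, SE) rose with CSE and Aimp2 did not pass. Of 8 genes that carry charged tRNA to the ribosome or export tRNA from the nucleus, 3 rose: Eef1d (0.36), Xpot (0.31) and Tufm (0.26). Of 8 mitochondrial translation factors 5 rose: Mtrf1 (0.73), Guf1 (0.43), Mtif2 (0.37), Gfm1 (0.33) and Mtif3 (0.32). None of these 3 lists had a member that fell with CSE or passed between CSE with naringenin and CSE. Beside these counts, 10.8% of all genes were called higher and 10.4% lower with CSE. Between CSE with naringenin and CSE 0.908% of all genes were called.

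Of the 24 genes of the Atf4 and amino acid response list 6 rose with CSE, none fell, and the list's median log2 fold change was 0.39. Among all genes tested 10.8% were called higher and 10.4% lower. Slc7a11, the cystine transporter subunit, gave 119, 110, 104, 119 and 97.0 CPM in controls and 593, 509, 767, 480 and 422 CPM with CSE. The groups lay far apart, with a log2 fold change of 2.34 ± 0.22 (SE, adjusted p = 8.30e-06, edgeR), and with naringenin it gave 321, 210, 463, 450 and 229 CPM. These all exceed the controls, and 3 of them lie below every CSE library. The others were Chac1 (1.55), Trib3 (1.44), Slc3a2 (1.08), Mthfd2 (0.93) and Shmt2 (0.65). Atf4 itself (0.48, adjusted p = 0.132, edgeR) and Asns, asparagine synthetase (0.49, adjusted p = 0.0910, edgeR), did not pass. Asns, like Slc7a11 and Pycr1 given by library after its values were seen, showed the set pattern of Eprs, with 286 and 303 CPM in the CSE libraries of set 1 and 178 and 170 CPM in those of set 2. Pycr1, an enzyme of proline synthesis, was the one gene of the list that passed between CSE with naringenin and CSE, where it was higher by 0.81 ± 0.17 (SE, adjusted p = 0.0400, edgeR). It gave 6.17, 5.70, 6.78, 5.94 and 3.84 CPM with CSE and 9.27, 10.1, 10.3, 10.8 and 9.55 CPM with naringenin. No library of one group reached the other, as in 4.77% of all genes.

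**Figure D5:**
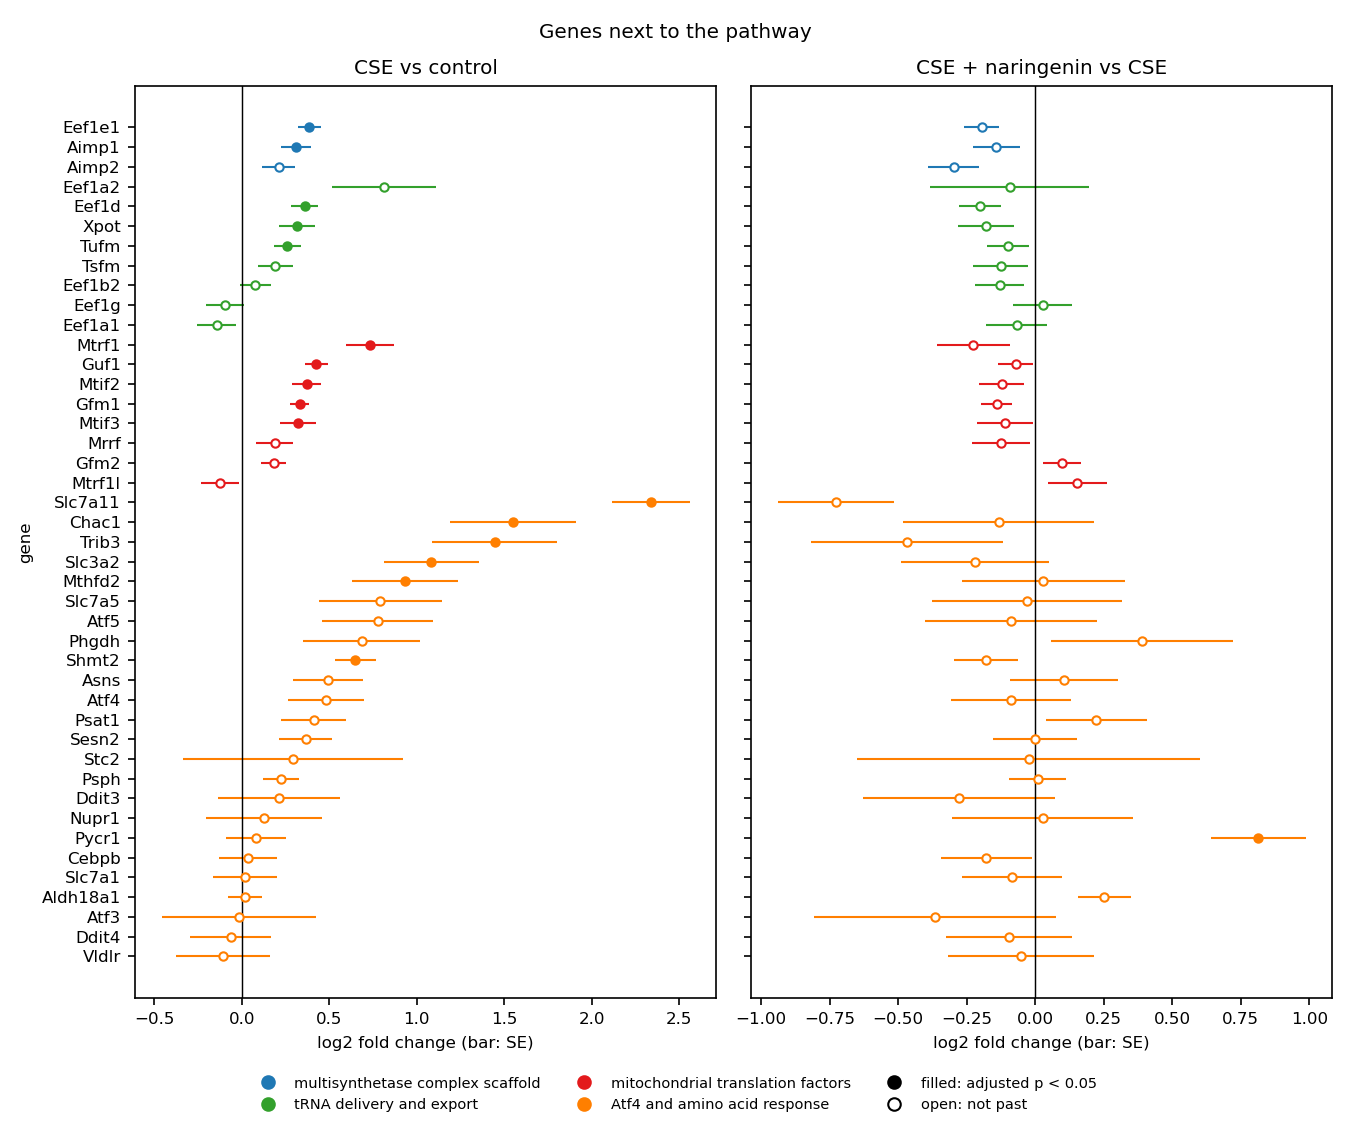
Log2 fold change with its SE of genes next to the pathway, by list, for CSE against control (left) and CSE with naringenin against CSE (right), with filled points for an adjusted p under 0.05 in edgeR. Slc7a11 at 2.34 leads the left panel, and Pycr1 at 0.81 is the one filled point of the right panel.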

How the data were processed

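The values tested were read counts per gene in 15 libraries, which the authors deposited unnormalized. FPKM values in the same deposited table were used for levels between genes and for 1 alternative fit. Adapter trimming software (cutadapt 1.9), an aligner (HISAT2 2.0.4), UMI-tools, the assembler StringTie (1.3.4d) and the count packages edgeR and DESeq2 are listed in the submitters' processing notes, which do not say how each was used. Neither the genome build nor the merging of reads by molecular identifier nor the use of strand in counting is stated in any source used here. Counts of different genes overlapping on a locus are therefore uncertain, which touches 10 of the 46 genes.

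Counts were fitted in edgeR 4.0.16 (R 4.3.3) with the quasi-likelihood F test, TMM scaling, filterByExpr over the 3 groups and group as the only term, all 15 libraries in 1 fit. Fold changes are log2, p-values are Benjamini-Hochberg adjusted over the 15860 genes tested, and the threshold was 0.05. The test was tried on simulated counts. CPM are counts per 1e6 of the TMM-scaled library total. Alternatives used DESeq2 1.42.0, limma 3.58.1 (voom, and log2 of FPKM plus 0.1), other scaling and filters, blocks for replicate number or library set, and fits without single libraries. No pair of replicates agreed within sampling noise. A chi-square measure of their disagreement was 2.78 to 5.72 in the 6 pairs within a library set. It was 7.45 to 21.1 in the 24 pairs across sets, where sampling noise alone gives 0.455. The 5 libraries of a group may therefore not be equally independent, which fits without the set block ignore. Replicate numbers are shared across groups, but same-numbered libraries deviated together only in part (correlations of -0.39 to 0.39, over 0.1 in 7 of 15 pairs). Replicate 5 of each group fell in set 3, while other numbers were split between sets. The numbers were therefore not treated as pairs.

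The members, lists, groupings and alternatives were chosen with earlier results of these data known. Named genes are every member past the threshold; values per library are given for the 3 largest changes among those called in each comparison plus Wars1, Aars, Gars and Kars, and for others where the text says so. Genes outside the members come from 5 lists: scaffold, tRNA delivery, mitochondrial factors, Atf4 response and interferon-induced genes. Marker genes that could not be matched by symbol in the table, Foxj1, Cd3e, Col1a2, Pecam1 and Cdh5, were not analysed here. One member and one listed gene are counted but not reported by name here.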

Additional observations from a re-analysis of the deposited data

Results flagged for a closer look

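In 5 of 138 sets of 5 libraries, 1 library lay apart from the other 4 by more than Dixon's 95% critical value, and chance gives about 5% of sets. Of these, 3 were replicate 5 of a treated group, the libraries of set 3: Farsa in CSE 5 (93.0 CPM), Qars1 in CSE 5 (326 CPM) and Qars1 in CSE with naringenin 5 (332 CPM), each above the rest of its group. The others were Yars2 in CSE with naringenin 3 (18.7 CPM) and the shorter Gatc locus in CSE 3 (7.60 CPM), both high.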

How the results depend on the processing

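No setting reversed the direction of a called gene, and none gave a member called lower against control. For CSE against control the count of 23 genes higher lay between 19 and 33 under DESeq2, limma-voom, RLE size factors, no low count filter, limma on log2 FPKM, the 2 groups alone, either block and counts summed per library set; it was 16 to 23 with 1 library left out, and 12 without set 3. For CSE with naringenin against CSE the count lower was 0 except for 2 with the library set block, and the count higher was 0 throughout. For CSE with naringenin against control the count of 10 higher was 17 on log2 FPKM, 5 with the 2 groups alone, 26 with the library set block, 5 without set 3 and 3 to 17 with 1 library left out. With the library set block the calls over all genes also rose in the 3 comparisons. They were 6325, 2015 and 4192, from 3363, 144 and 1294 in the main fit. The cause was not tested. With 1 library left out, CSE against control called 2585 to 3501 of all genes. CSE with naringenin against control called 755 to 1409. The FPKM scale shifts the median of all genes for CSE against control to 0.06 from -0.00255 (log2). The replicate block, whose numbers were not treated as pairs, gave 19, 0 and 10 genes higher in the 3 comparisons. The fit without set 3 and that on summed counts were added after seeing the data. Within single sets of 2 libraries per group only values, not tests, were taken. Intervals cover the spread between these libraries only.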
